A study of Mus musculus with 20 samples.

Results

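The *Myb* locus was described in all 3 histone marks of the series, across the 4 genotypes. *Myb* (ENSMUSG00000019982.15) is a minus-strand gene of mouse chromosome 10, at chr10:21124935-21160984 of mm10, and its first annotated transcript start is at 21160984. The window was *Myb* with 140 kb added upstream, toward *Hbs1l*, and 45 kb added on the other side, toward *Ahi1*, which gave chr10:21079935-21300984, or 221 kb. Every called peak that overlapped the window was a member, 368 of the 591292 peaks in the 12 lists. Of these, 52 were H3K27ac peaks, 280 were H3K4me1 peaks, and 36 were H3K4me3 peaks. Positions below are in kb from the first *Myb* start, positive when upstream, so that the *Myb* gene has negative positions and the *Hbs1l* start lies at 135 kb.

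Chromatin came from Lin- bone marrow cells, which remain once mature lineages are depleted and are rich in progenitors. WT mice carried *Ep300* fl/fl without Cre, *Ep300*Δ/Δ mice carried *Mx1-Cre* and *Ep300* fl/fl, *Tet2*-/- mice carried *Ep300* fl/fl and *Tet2*-/-, and *Ep300*Δ/Δ*Tet2*-/- mice carried all 3. All 4 groups were on a C57BL/6 background, included males and females in the study as a whole, and received poly(I:C) at 6 to 8 weeks of age. The *Mx1* promoter that drives Cre responds to interferon and is not limited to blood cells, and mice without Cre received poly(I:C) too. The study's methods place experiments 2 weeks after the injections unless another time is named, and name none for the histone chromatin. The number of mice behind each chromatin sample is not given in the sources used here. The floxed state of *Ep300* cannot be read from these lists, because a promoter peak does not report on a deletion inside the gene. The *Ep300* promoter had 3 H3K27ac peaks in every genotype.

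There was 1 library for each genotype and mark, so there was no replicate error behind any value, and the genotypes were compared without a test. The whole lists held 18327 to 29659 H3K27ac peaks, 90738 to 107392 H3K4me1 peaks, and 25012 to 27807 H3K4me3 peaks. How deeply each library was read cannot be known from its peaks, and a peak absent from a list was not called there rather than shown to be missing. Each peak carries a fold enrichment over the H3 library of its genotype. That fold was used only to rank a peak within its own list, and a percentile below is a peak's rank by fold among all peaks of the same list, with the highest fold at percentile 100. A percentile therefore depends on the length of its list, and a list with more weak peaks gives the same peak a higher one, so percentiles of 2 genotypes are set side by side as descriptions. At the promoters of 12 stem and progenitor genes, H3K4me3 was called in all 4 genotypes for 12 of 12, and H3K27ac for 6 of 12. Of the promoters of 21924 protein-coding genes, 60.1% had H3K4me3 and 40.0% had H3K27ac in all 4 genotypes, and the marker counts were not tested against these shares. Of 6 genes of mature T and B cells, only *Cd3d* had either mark in all 4 genotypes. Of 4 annotated genes of mature granulocytes and erythroid cells, none had H3K27ac in all 4 genotypes and only *Hba-a1*, which has a near-identical copy, had H3K4me3 in all 4. H3K27ac was called at *Camp* in both genotypes with intact *Ep300*, at *Mmp9* in WT only, at *Hba-a1* in *Ep300*Δ/Δ only, and at *Ly6g* in none. Of 6 genes of tissues outside blood, none had H3K27ac in any genotype, whereas 2 (*Apoa1* and *Neurod1*) had H3K4me3 in all 4. Whether the mix of Lin- cells differed between genotypes, and its part in the results below, was not tested, and in bulk samples a change in that mix cannot be told apart from a change within cells.

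*Myb* encodes a DNA-binding transcription factor needed for definitive blood formation, which is high in stem and progenitor cells and falls as they mature. It recruits the acetyltransferases p300 and CBP through their KIX domain, and p300 acetylates histone H3 at lysine 27. In erythroid progenitors the gene is known to be controlled by distal enhancers between *Hbs1l* and *Myb*, and transcription can also pause in its first intron. H3K27ac marks active promoters and enhancers, H3K4me1 marks enhancers whether active or not, and H3K4me3 marks mainly promoters.

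The reference sequence of the *Myb* promoter is printed first, since H3K4me3 peaks overlapped it in every genotype and H3K27ac peaks lay to either side, reaching its far end in all genotypes but *Ep300*Δ/Δ. It holds the 250 bases before the first start, read 5′ to 3′ on the minus strand (RefSeq promoter table, GRCm38.p6), with each CpG in capitals.
Myb promoter, chr10:21160985-21161234, minus strand: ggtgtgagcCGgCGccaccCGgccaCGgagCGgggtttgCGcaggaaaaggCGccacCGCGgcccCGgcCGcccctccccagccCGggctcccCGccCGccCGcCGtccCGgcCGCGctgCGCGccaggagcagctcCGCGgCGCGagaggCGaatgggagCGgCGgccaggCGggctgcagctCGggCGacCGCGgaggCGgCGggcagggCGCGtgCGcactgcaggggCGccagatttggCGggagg

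This stretch holds 40 CpGs and is 81.2% G and C. Across 32851 promoters of the same length the median was 6 CpGs and 52.4% G and C, and 98.7% had fewer CpGs than *Myb*. None of the 5 motifs searched below occurred in it.

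Next are 8 of the 17 H3K27ac regions outside the *Myb* and *Hbs1l* promoters, chosen because they were called in all 4 genotypes (-77.5 and 36.0 kb), in 3 genotypes (26.1 and 60.4 kb), only in the 2 genotypes with deleted *Ep300* (-74.1 kb), or in 1 genotype (-14.6, 66.2, and 74.5 kb). Each is 200 bases of the GRCm38 plus strand around the summit of the peak with the highest −log10 *q*, and capitals mark a match to a motif on either strand.
-77.5 kb element, chr10:21083380-21083579: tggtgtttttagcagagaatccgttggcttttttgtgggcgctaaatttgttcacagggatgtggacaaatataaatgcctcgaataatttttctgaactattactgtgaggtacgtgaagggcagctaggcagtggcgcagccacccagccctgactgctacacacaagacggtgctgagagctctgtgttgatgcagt
-74.1 kb element, chr10:21086832-21087031: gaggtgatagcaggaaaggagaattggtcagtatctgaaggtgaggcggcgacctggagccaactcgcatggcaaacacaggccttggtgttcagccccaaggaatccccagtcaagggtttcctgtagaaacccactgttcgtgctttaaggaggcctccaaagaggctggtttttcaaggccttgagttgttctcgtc
-14.6 kb element, chr10:21146250-21146449: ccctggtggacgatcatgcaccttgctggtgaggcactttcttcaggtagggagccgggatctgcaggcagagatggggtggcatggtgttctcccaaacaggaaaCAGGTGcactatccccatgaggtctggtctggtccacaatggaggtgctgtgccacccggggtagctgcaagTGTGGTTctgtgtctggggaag
26.1 kb element, chr10:21187008-21187207: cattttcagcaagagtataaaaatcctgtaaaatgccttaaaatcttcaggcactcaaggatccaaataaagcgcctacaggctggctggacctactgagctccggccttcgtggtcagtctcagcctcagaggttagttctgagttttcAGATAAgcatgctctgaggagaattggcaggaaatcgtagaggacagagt
36.0 kb element, chr10:21196840-21197039: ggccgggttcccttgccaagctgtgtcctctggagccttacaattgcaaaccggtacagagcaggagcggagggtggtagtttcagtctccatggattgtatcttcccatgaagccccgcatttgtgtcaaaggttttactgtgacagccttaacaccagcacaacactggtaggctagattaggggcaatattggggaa
60.4 kb element, chr10:21221288-21221487: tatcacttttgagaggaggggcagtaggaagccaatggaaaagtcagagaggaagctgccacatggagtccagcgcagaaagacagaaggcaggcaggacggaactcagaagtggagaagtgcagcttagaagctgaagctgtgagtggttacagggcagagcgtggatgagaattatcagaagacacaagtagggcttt
66.2 kb element, chr10:21227049-21227248: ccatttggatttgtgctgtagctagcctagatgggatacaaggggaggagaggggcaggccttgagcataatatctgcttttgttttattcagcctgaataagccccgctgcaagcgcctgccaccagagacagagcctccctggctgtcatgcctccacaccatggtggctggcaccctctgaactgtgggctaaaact
74.5 kb element, chr10:21235396-21235595: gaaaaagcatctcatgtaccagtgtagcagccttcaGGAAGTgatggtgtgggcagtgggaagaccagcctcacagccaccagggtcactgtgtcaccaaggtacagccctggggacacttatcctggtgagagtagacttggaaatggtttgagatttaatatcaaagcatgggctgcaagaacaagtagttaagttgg

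The motif of the GATA family was AGATAA, and the others were GGAAGT (ETS factors), TGTGGTT (RUNX factors), CAGNTG (the E-box bound by TAL1 and its relatives), and TAACNG (MYB itself), and a base could belong to more than 1 motif. Of the 17 regions, 6 held an E-box (35.3%), against 49.2% of 13820 H3K27ac regions outside promoters across the merged lists, with 1 autosome left out. The 17 include regions at lincRNA starts and at starts inside *Myb*, which the larger set leaves out. A GATA, ETS, RUNX, or MYB motif was found in 1 of 17 regions each (5.88%), against 7.14%, 15.2%, 4.96%, and 18.5% of those regions. The GATA match was in the 26.1 kb element, the ETS match in the 74.5 kb element, the RUNX match in the -14.6 kb element, and the MYB match in an element at 81.2 kb called only in *Ep300*Δ/Δ cells. These shares were no higher than those of other regions for 4 of the 5 motifs, and a match is not evidence of binding.

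**Figure D1:**
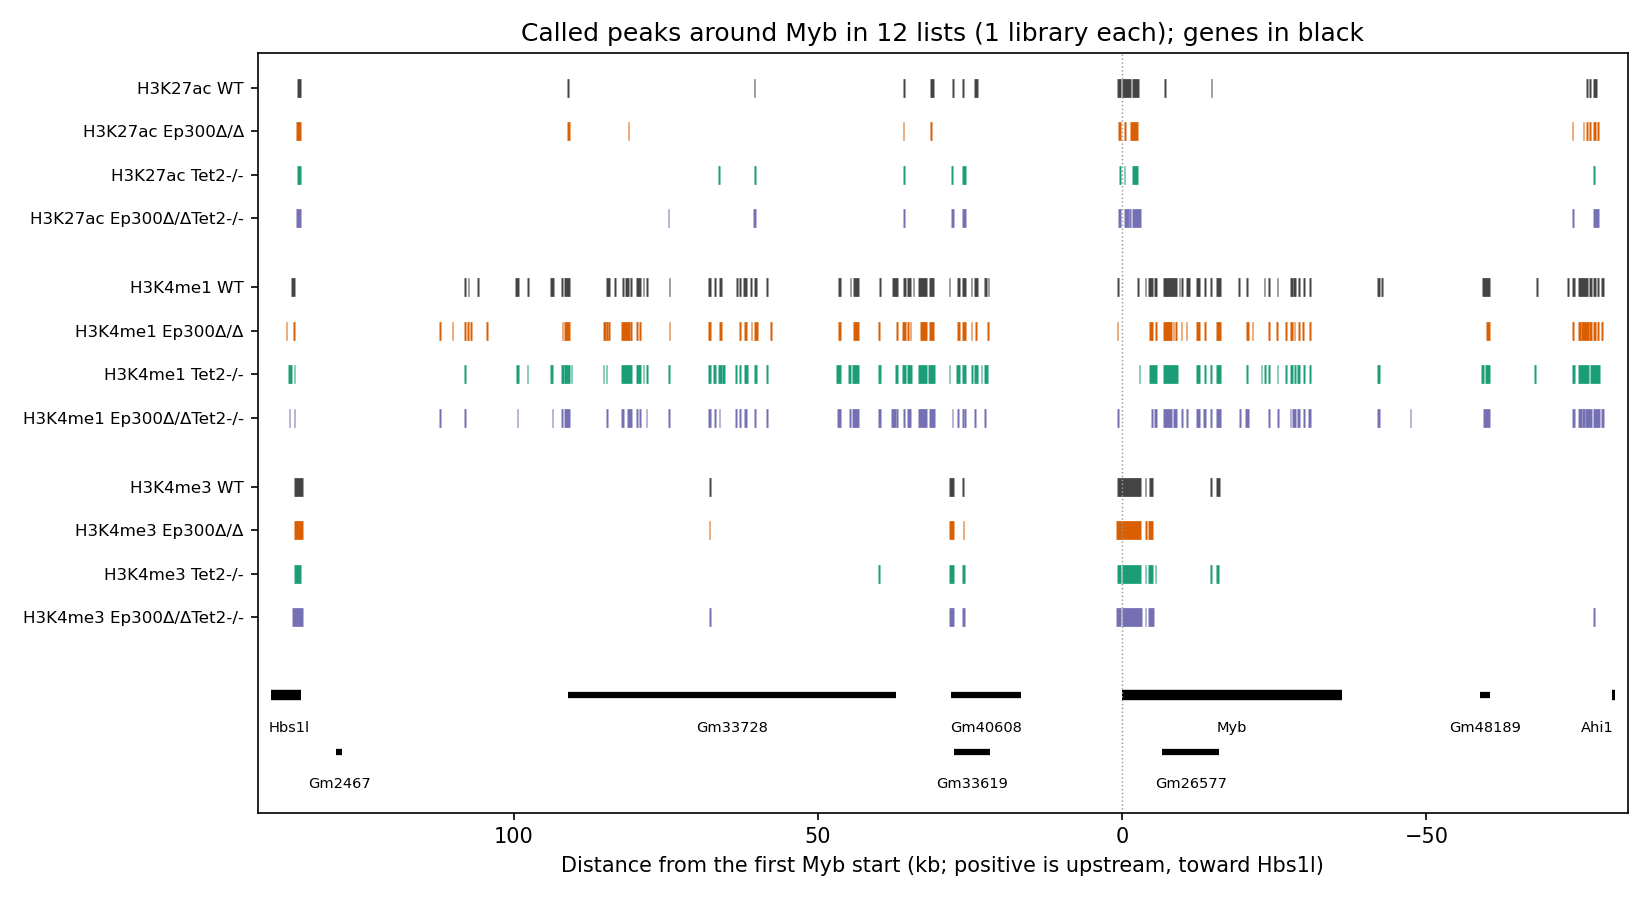
Peaks called in the *Myb* window in the 12 lists, 1 row per mark and genotype, against distance from the first *Myb* start in kb (positive is upstream), with annotated genes in black. H3K4me1 peaks (78, 68, 66, and 68) are spread along the window in all 4 genotypes, whereas H3K27ac peaks (16, 14, 10, and 12) gather at the *Myb* promoter, near 26 to 36 kb, near -77 kb, and at *Hbs1l*.

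In the window, WT cells had 16 H3K27ac peaks over 8.5 kb and *Ep300*Δ/Δ cells 14 over 6.3 kb. Without *Tet2* there were 10 peaks over 4.9 kb with intact *Ep300* and 12 over 7.1 kb with *Ep300* deleted. The length under H3K27ac was thus lower after *Ep300* deletion in cells with *Tet2* and higher after it in cells without *Tet2*, but as a share of the length of the whole list it was higher after deletion on both backgrounds, at 0.0455% and 0.0546% with *Tet2* and 0.0331% and 0.0594% without it. The whole lists covered 18.7, 11.5, 15.0, and 11.9 Mb in the same order, and so were shorter after *Ep300* deletion on both backgrounds. H3K4me1 peaks numbered 78, 68, 66, and 68 and covered 39.7, 30.6, 38.4, and 33.2 kb. Both Ep300-deleted genotypes thus had less of the window under H3K4me1 than their counterparts, as did their whole lists. H3K4me3 peaks numbered 9, 7, 11, and 9 and covered 8.9, 7.8, 9.1, and 9.2 kb. H3K4me1 covered 18.0%, 13.9%, 17.4%, and 15.0% of the window, and 2.38%, 2.02%, 2.56%, and 2.13% of the genome.

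Windows drawn in the same way around 20807 protein-coding autosomal genes gave a scale for these counts. The *Myb* window held more H3K4me1 peaks than 99.5%, 99.6%, 99.3%, and 99.6% of them in WT, *Ep300*Δ/Δ, *Tet2*-/-, and double-mutant cells, where the median window held 17, 14, 15, and 15. For H3K27ac the corresponding shares were 90.9%, 91.6%, 81.0%, and 94.5%. For H3K4me3 they were 74.6%, 64.8%, 82.4%, and 74.0%. By length under peaks the H3K4me1 shares were lower, at 94.4%, 91.9%, 93.4%, and 93.6%, and those for H3K27ac were 84.0%, 87.7%, 73.5%, and 91.5%. The window thus stood higher among genes by the number of its H3K4me1 peaks than by the length under them. Windows of neighboring genes overlap, and windows differ in length with the gene.

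**Figure D2:**
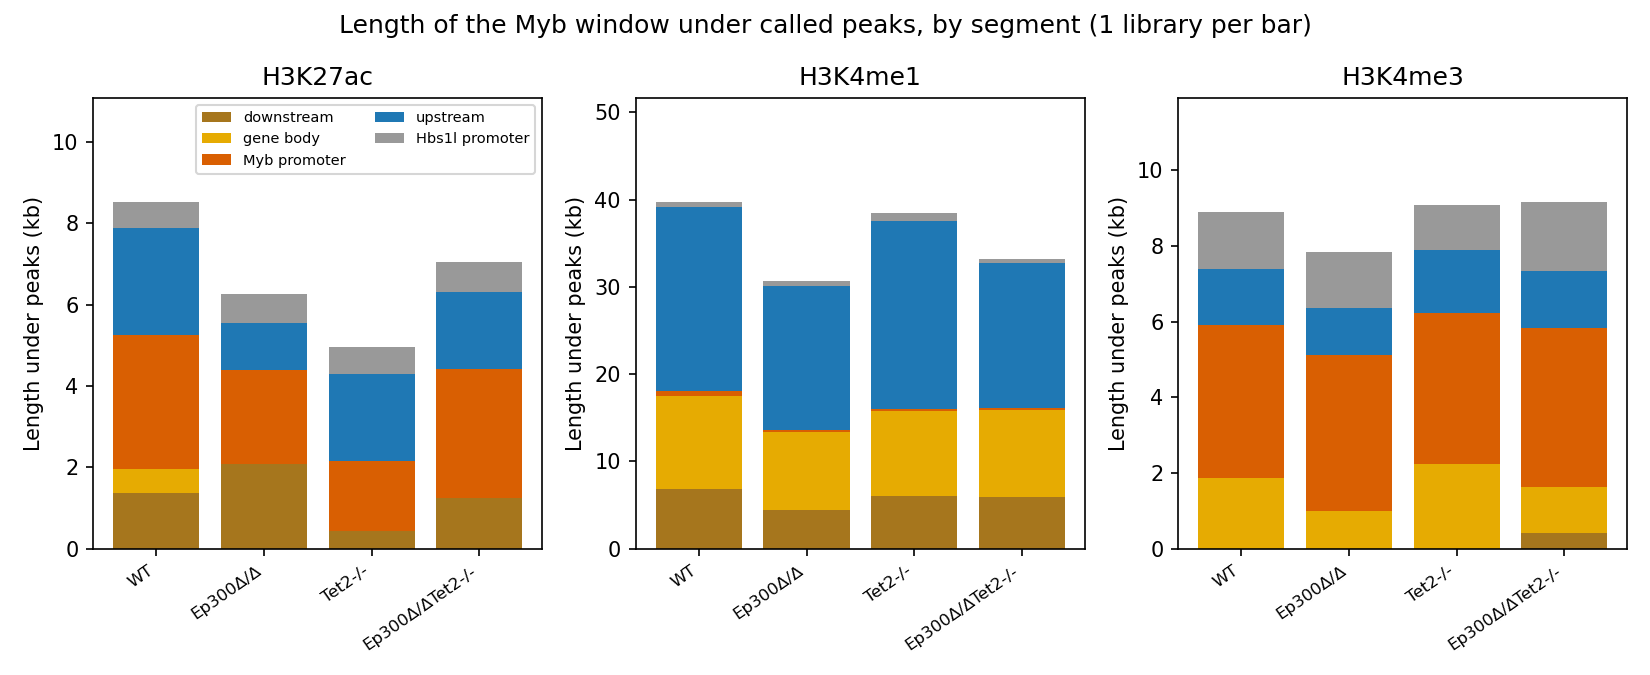
Length of the *Myb* window under called peaks in kb, for each mark (panels, with different vertical scales) and genotype (bars, 1 library each), split by segment. *Tet2*-/- cells had the shortest H3K27ac bar (4.9 kb) and *Ep300*Δ/Δ cells the shortest H3K4me1 (30.6 kb) and H3K4me3 (7.8 kb) bars.

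At the *Myb* promoter, both active marks were called in all 4 genotypes. The H3K27ac peak just upstream of the start, with its summit at 0.3 to 0.4 kb, ranked at percentile 80.6 in WT and 74.2 in *Ep300*Δ/Δ cells, and 80.2 in *Tet2*-/- and 42.4 in double-mutant cells. Its width was 736, 492, 346, and 530 bp. A second stretch of H3K27ac lay in the first exon and intron, within 3.0 kb of the start, and its highest peak ranked at percentile 62.4, 35.5, 68.6, and 67.6. The rank of the upstream peak was therefore lowest in the double mutant, whereas the rank of the intronic stretch was lowest in *Ep300*Δ/Δ cells. In all, H3K27ac peaks covered 3.31 kb of the promoter in WT and 2.30 kb in *Ep300*Δ/Δ cells, and 1.70 kb in *Tet2*-/- and 3.17 kb in double-mutant cells. In the double mutant an extra peak of 315 bp at -1.3 kb, inside the first intron, overlapped no *Tet2*-/- peak. The *Ep300*Δ/Δ peak at -0.4 kb (percentile 1.9) had a −log10 *q* of 0.59, short of the threshold the methods state (*q* of 0.05).

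H3K4me3 at the *Myb* promoter formed 1 peak of 4036 bp in WT and 1 of 4106 bp in *Ep300*Δ/Δ cells. It was called as 2 peaks in *Tet2*-/- cells (3220 and 778 bp) and in double-mutant cells (3261 and 940 bp). The highest of these ranked at percentile 83.0, 89.3, 94.0, and 86.7. The total length under H3K4me3 at the promoter was 4.04, 4.11, 4, and 4.20 kb. H3K4me1 was sparse at the promoter, with 0.56, 0.27, 0.24, and 0.33 kb under peaks, none of them above percentile 25.2.

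Inside the gene, WT cells had 2 H3K27ac peaks that no other genotype had. The first, at -14.6 kb (225 bp, percentile 45.2), had its summit in exon 9 of the transcript Myb-201 and in an intron of the antisense gene *Gm26577*. H3K4me1 there ranked at percentile 96 in WT, 9.8 in *Tet2*-/-, and 79.8 in double-mutant cells, and was not called in *Ep300*Δ/Δ cells. H3K4me3 was called there in WT (percentile 45) and *Tet2*-/- cells (percentile 17.3) and in neither genotype with deleted *Ep300*. A neighboring H3K4me3 region from -16.0 to -15.4 kb, at the start of *Gm26577*, showed the same presence, at percentile 22.5 in WT and 28.4 in *Tet2*-/- cells. These were the 2 of 12 merged H3K4me3 regions that were present in both genotypes with intact *Ep300* and absent from both without it, a presence singled out after the values were seen. The antisense gene shares this stretch with *Myb*, and ChIP reads do not tell the strands apart. The second, at -7.0 kb (348 bp, percentile 59.8), lay in intron 3 of Myb-201 and over an exon of *Gm26577*. It fell within a broad H3K4me1 region of 2446 bp, the second widest of the window, whose highest peak ranked at percentile 99.8, 92.5, 99.3, and 99.4 in WT, *Ep300*Δ/Δ, *Tet2*-/-, and double-mutant cells. At the H3K27ac site itself the H3K4me1 percentile was 99.8, 89.5, 99.3, and 56.2. The broad region thus ranked high in each list, with the lowest rank under the WT-only H3K27ac peak in the double mutant.

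Upstream of *Myb*, a group of H3K27ac regions at 24 to 36 kb lay around the start sites of the lincRNAs *Gm33619* and *Gm40608*. The 26.1 kb element ranked at percentile 40.1 in WT, 81.3 in *Tet2*-/-, and 36.7 in double-mutant cells, and had no peak in *Ep300*Δ/Δ cells. The adjacent 27.8 kb element had the same presence, with percentiles of 16.9, 43.6, and 15.6. Both ranked highest in *Tet2*-/- cells. H3K4me3 was called at both in all 4 genotypes, at percentile 23.4, 19.7, 46.7, and 31.3 for the first and 60.2, 39.2, 88.5, and 75.5 for the second, in the order WT, *Ep300*Δ/Δ, *Tet2*-/-, double mutant. *Ep300*Δ/Δ cells thus had the lowest H3K4me3 rank at both lincRNA starts and no H3K27ac call. A WT peak at 24.1 kb (percentile 20.4) was called in no other genotype. A region at 31.4 kb was called in WT (percentile 16.9) and *Ep300*Δ/Δ cells (percentile 8.5) only.

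The 36.0 kb element, intergenic between *Gm40608* and the 3′ end of *Gm33728*, was 1 of 2 distal H3K27ac regions called in all 4 genotypes. Its H3K27ac ranked at percentile 17.6 in WT and 11.6 in *Ep300*Δ/Δ cells, and at 63.3 in *Tet2*-/- and 65.0 in double-mutant cells. Counted from the highest fold, these peaks were number 24401 of 29659 in WT and 20033 of 22727 in *Ep300*Δ/Δ cells, and 9009 of 24539 in *Tet2*-/- and 6418 of 18327 in double-mutant cells. Both genotypes without *Tet2* thus stood nearer the top of their list than both with it, by either count, with 1 library each. Its H3K4me1 ranked at percentile 99.1, 99.2, 95.5, and 99.1, the highest minimum over the 4 lists of any H3K4me1 region in the window. No H3K4me3 was called there.

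Farther upstream, H3K27ac calls were scattered within *Gm33728*. The 60.4 kb element was called in WT (percentile 11.7), *Tet2*-/- (58.2), and *Ep300*Δ/Δ*Tet2*-/- cells (14.4), and its H3K4me1 ranked at percentile 96.4, 68.4, 91.1, and 95.7 over the 4 genotypes. The 66.2 kb element was called in *Tet2*-/- cells only (percentile 14.4), the 74.5 kb element in *Ep300*Δ/Δ*Tet2*-/- cells only (percentile 36.3), and the 81.2 kb element in *Ep300*Δ/Δ cells only (percentile 13). The last had a −log10 *q* of 0.92, short of the stated threshold. At the *Gm33728* start, 91.1 kb, H3K27ac was called in WT (percentile 35.1) and *Ep300*Δ/Δ cells (percentile 14.8, −log10 *q* of 1.28, also short of the threshold). All 4 genotypes had H3K4me1 at each of these 5 elements. Its rank was highest in *Ep300*Δ/Δ cells at 81.2 kb (percentile 92.6, against 55.2 to 72.1 elsewhere), the genotype with the H3K27ac call. At 66.2 kb the H3K4me1 rank was lowest in *Tet2*-/- cells (percentile 9.0, against 69.4 to 70.6), which held the only H3K27ac call.

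Downstream, past the 3′ end of *Ahi1*, H3K27ac regions lay side by side between -78.4 and -73.9 kb, and all but the last overlapped the widest H3K4me1 region of the window (3618 bp). The -77.5 kb element was called in every genotype, at percentile 71.5 in WT and 64.7 in *Ep300*Δ/Δ cells, and 56.8 in *Tet2*-/- and 55.3 in double-mutant cells. The next 2, at -77.0 kb (percentile 68.3 and 55.6) and -76.5 kb (1.8 and 10.4), were called in WT and *Ep300*Δ/Δ cells and in neither genotype without *Tet2*. H3K4me1 over this pair ranked lowest in WT cells (percentile 73.0 and 82.8) and higher in the other genotypes, at 88.2 and 86.5 in *Ep300*Δ/Δ, 91.3 and 99.7 in *Tet2*-/-, and 93.5 and 93.5 in double-mutant cells. The -75.9 kb region was called in *Ep300*Δ/Δ cells only (percentile 17.6). The -74.1 kb element was called in both genotypes with deleted *Ep300*, at percentile 16.3 in *Ep300*Δ/Δ and 17.8 in double-mutant cells, and in neither with intact *Ep300*. Of 20 merged H3K27ac regions it was the 1 with that presence, which was also singled out after the values were seen. H3K4me1 at -74.1 kb ranked at percentile 27.2 in WT and 95.3 in *Ep300*Δ/Δ cells, and 83.2 in *Tet2*-/- and 93.9 in double-mutant cells.

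The *Hbs1l* promoter, at the upstream edge of the window, served as a neighboring promoter. Its H3K27ac ranked at percentile 84.4 in WT and 79.2 in *Ep300*Δ/Δ cells, and 60.6 in *Tet2*-/- and 84.8 in double-mutant cells. Its H3K4me3 ranked at percentile 89.8, 76.5, 79.7, and 83.2. The order of the genotypes therefore differed from that at the *Myb* promoter, where the double mutant had the lowest H3K27ac rank just upstream of the start.

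**Figure D3:**
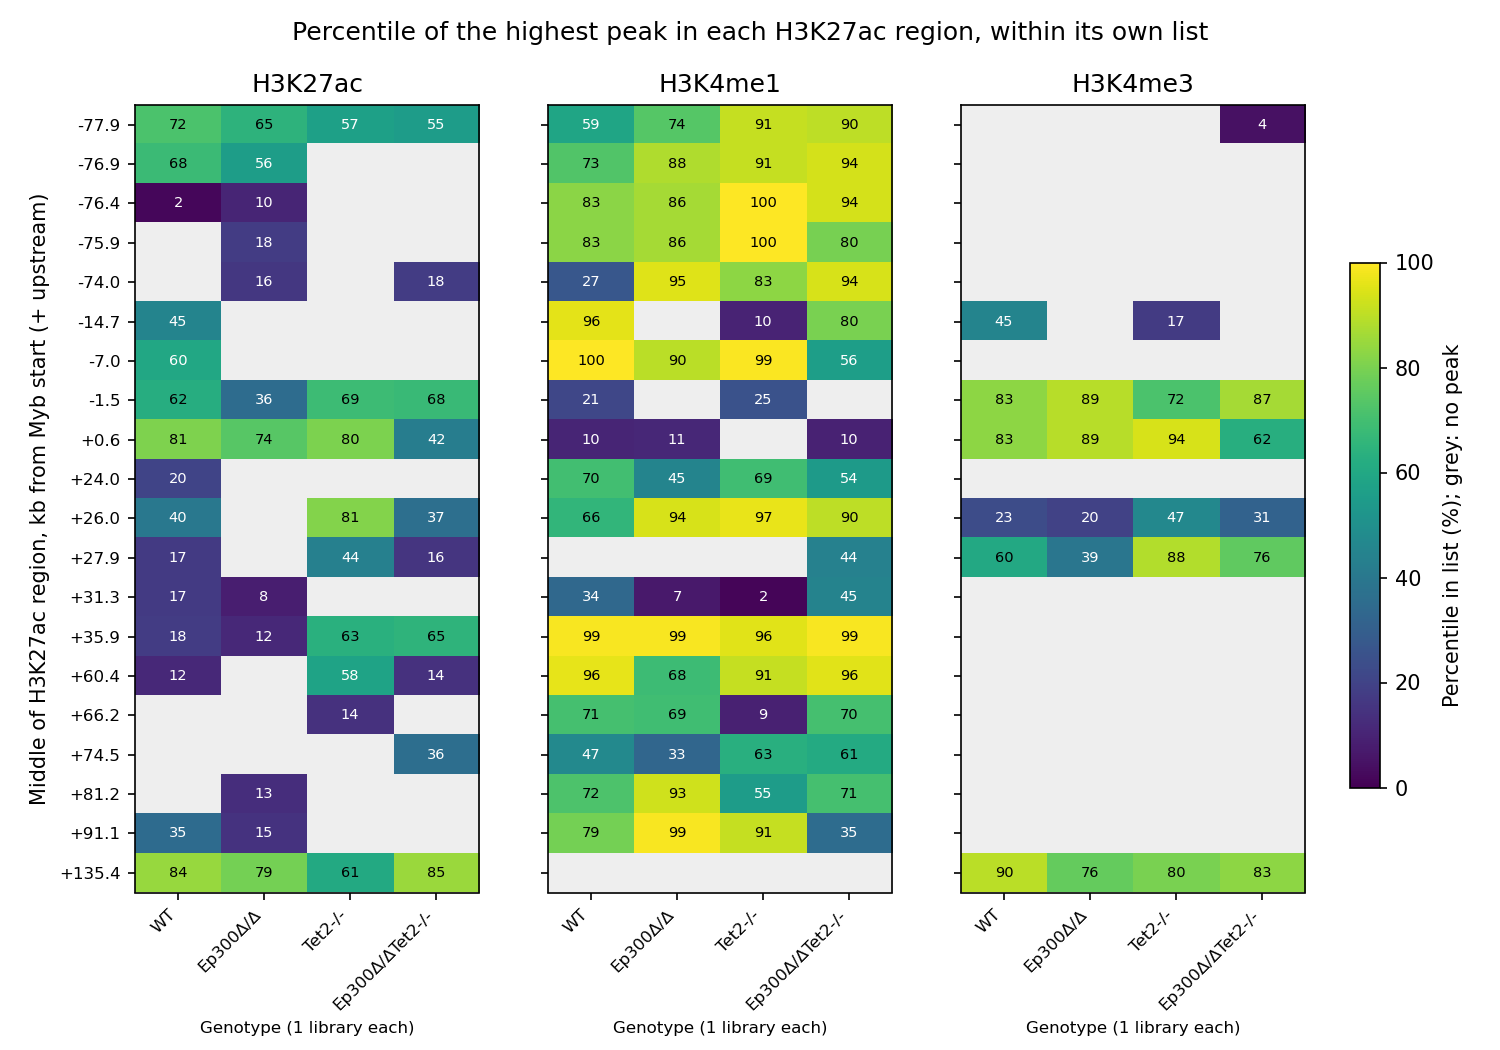
Percentile, within its own list, of the highest peak that overlaps each of the 20 merged H3K27ac regions of the window (rows, middle of the region in kb from the *Myb* start) in each genotype (columns, 1 library each), for the 3 marks. Grey cells had no peak. H3K27ac was present in all 4 genotypes in 5 of the 20 rows. Of the 17 rows outside the *Myb* and *Hbs1l* promoters, 2 had H3K27ac and 15 had H3K4me1 in all 4. The H3K4me1 lists are longer than the H3K27ac lists, and no whole-list share was computed for these 2 counts.

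To ask how the locus compared with the genome, overlapping peaks of 2 lists were joined into regions. A region counted as lost when only the first genotype had a peak in it, and as gained when only the second had one. Of the merged H3K27ac regions, 5 of 20 were present in all 4 lists (25.0%, exact 95% interval 8.66 to 49.1), against 35.5% in the genome. The 3 regions missing in *Ep300*Δ/Δ cells alone (26.1, 27.8, and 60.4 kb) and the 4 present in WT and *Ep300*Δ/Δ cells alone (-77.0, -76.5, 31.4, and 91.1 kb) were singled out after their values were seen, so they are not set against the genome. Between WT and *Ep300*Δ/Δ cells, 6 of 15 H3K27ac regions were lost (40%, interval 16.3 to 67.7), close to the 39.7% of the whole list. They were the regions at -14.6, -7.0, 24.1, 26.1, 27.8, and 60.4 kb. In the same comparison 4 of 13 were gained (30.8%, interval 9.09 to 61.4), against 12.8% of the whole list. These were at -78.1, -75.9, -74.0, and 81.2 kb. When the lists were cut to equal size, 2 of 7 regions were lost, against 24.1% of the list, and 0 of 5 gained, against 16.8%. In the upper parts of the lists 1 of 6 was lost, against 12.9%, and 0 of 4 gained, against 1.81%. The exact interval of each of these 4 shares held the list share.

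From *Tet2*-/- to *Ep300*Δ/Δ*Tet2*-/- cells, 1 of 10 H3K27ac regions was lost (10.0%, interval 0.253 to 44.5), against 37.8% of the whole list. The lost region was the 66.2 kb element. In this comparison 3 of 12 were gained (25.0%, interval 5.49 to 57.2), against 15.0% of the whole list, at -74.1, -1.3, and 74.5 kb. The intervals for the window held the whole-list share in each of these 4 comparisons, so a difference from the genome was not detectable with so few regions. With the list divided by fold into 4 equal bins, and each of the 10 regions lost at the share of its own bin, 2.6 would have been lost. By the same rule, 2.3 would have been gained in this comparison, beside the 3 seen. From WT to *Ep300*Δ/Δ cells, 7.3 would have been lost and 2.8 gained, beside the 6 and 4 seen. From WT to *Tet2*-/- cells, 7 of 16 were lost (43.8%, interval 19.8 to 70.1), against 35.6% of the whole list, and 1 of 10 was gained (10.0%, interval 0.253 to 44.5), against 20.3%. The 7 were at -77.0, -76.5, -14.6, -7.0, 24.1, 31.4, and 91.1 kb. These comparisons share libraries with the ones above and are not independent of them.

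Of 85 merged H3K4me1 regions, 40 were present in all 4 lists (47.1%, interval 36.1 to 58.2), against 34.4% in the genome. The interval left out the genome share here, but held it with −log10 *q* of at least 5 (22 of 64, interval 22.9 to 47.3, against 25.1%) and with lists of equal size (36 of 82, interval 33.0 to 55.3, against 33.6%), and this share was not matched for peak strength. Regions in all 4 lists were 297 to 3618 bp wide and those in 1 list 180 to 399 bp, a difference that merging alone can widen. By position, 24 of 49 regions upstream, 12 of 22 in the gene body, and 3 of 9 downstream were in all 4. Between WT and *Ep300*Δ/Δ, 24 of 77 H3K4me1 regions were lost (31.2%, interval 21.1 to 42.7), against 36.7% of the whole list. Of the 24, 14 lay upstream, 5 in the gene body, 4 downstream, and 1 at the *Myb* promoter. In the same comparison 9 of 62 were gained (14.5%, interval 6.86 to 25.8), against 24.1%. From *Tet2*-/- to *Ep300*Δ/Δ*Tet2*-/- cells, 13 of 63 were lost (20.6%, interval 11.5 to 32.7), against 31.1%, and 8 of 58 were gained (13.8%, interval 6.15 to 25.4), against 23.4%. From WT to *Tet2*-/- cells, 15 of 72 were lost (20.8%, interval 12.2 to 32.0), against 28.6%, and 7 of 64 were gained (10.9%, interval 4.51 to 21.2), against 26.8%. The window share lay below the whole-list share in all 6 H3K4me1 comparisons. With the list again divided by fold into 4 bins, the counts to set beside the 24, 9, 13, 8, 15, and 7 regions were 25.0, 12.8, 16.0, 11.2, 18.2, and 13.8, so the summed gap was narrower once strength was matched. In the strongest bin the shares lost were above those of the list, at 8 of 29 (13.2%), 5 of 28 (10.4%), and 4 of 27 (7.07%), with the list share in brackets. The shares gained there were below, at 1 of 24 (6.32%), 0 of 24 (5.66%), and 1 of 29 (8.55%). These were not tested. Of the main intervals for the 6 H3K4me1 comparisons, the one for regions gained from WT to *Tet2*-/- left out the whole-list share. That count became 13 of 52 with −log10 *q* of at least 5 (25.0%, interval 14.0 to 38.9), where the interval held the 37.3% of the whole list, and 0 of 64 with a distance of 500 bp allowed (interval 0.0 to 5.6, against 18.0%). For regions gained from WT to *Ep300*Δ/Δ the interval left it out in 3 alternatives, namely lists of equal size (9.2 to 29.5, against 30.8%), the narrower window (2.37 to 20.4, against 24.1%), and peaks that meet the stated *q* (4.82 to 22.6, against 23.8%). With a distance of 500 bp allowed, 13 of 77 regions were lost between WT and *Ep300*Δ/Δ (16.9%, interval 9.31 to 27.1), against 25.1%. With that distance 4 of 63 were lost from *Tet2*-/- to the double mutant (6.35%, interval 1.76 to 15.5) and 6 of 72 from WT to *Tet2*-/- (8.33%, interval 3.12 to 17.3), against 21.3% and 18.7%, and both intervals left out the whole-list share.

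Among the H3K4me1 regions, 5 were present in WT and *Tet2*-/- cells and absent from both genotypes with deleted *Ep300* (5.88%), against 5.71% of 136457 merged regions in the genome. They began at -68.4, -23.6, 28.3, 78.5, and 97.6 kb. The reverse presence was found for 1 region at 111.9 kb (1.18%), against 2.26%. Another 9 of the 85 regions were missing in *Ep300*Δ/Δ cells alone (10.6%), against 5.21% in the genome. This difference was not tested. The third widest H3K4me1 region, 1887 bp from 80.5 to 82.4 kb, was in all 4 lists. Above percentile 90 of their list by fold were 11 of 78 H3K4me1 peaks in WT, 13 of 68 in *Ep300*Δ/Δ cells, 14 of 66 in *Tet2*-/-, and 16 of 68 in double-mutant cells, and no H3K27ac peak of the window was.

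For H3K4me3, 6 of 12 merged regions were present in all 4 lists (50%, interval 21.1 to 78.9), against 64.1% in the genome. The 3 widest were the *Myb* promoter (4306 bp), the *Hbs1l* promoter (1836 bp), and a region of 935 bp from -5.2 to -4.2 kb over exon 2 of Myb-201, all present in all 4 lists. Between WT and *Ep300*Δ/Δ, 2 of 9 were lost (22.2%, interval 2.81 to 60), against 15.4%, and none of 7 was gained (interval 0.0 to 41.0), against 11.1%. From *Tet2*-/- to *Ep300*Δ/Δ*Tet2*-/- cells, 4 of 11 were lost (36.4%, interval 10.9 to 69.2), against 13.3%, and 2 of 9 were gained (22.2%, interval 2.81 to 60), against 9.45%. From WT to *Tet2*-/- cells, 1 of 9 was lost (11.1%, interval 0.281 to 48.2), against 11.1%, and 2 of 10 were gained (20%, interval 2.52 to 55.6), against 13.6%. Both losses on the first background lay in the gene body, at the *Gm26577* start and exon 9, and the same 2 regions were lost on the second. The other 2 regions lost on the second background, at -5.5 and 39.8 kb, were called in *Tet2*-/- cells only. The gained regions there were at 67.6 kb and, with a percentile of 4.4, at the -77.5 kb element. A small H3K4me3 peak at 67.6 kb, in WT, *Ep300*Δ/Δ, and double-mutant cells, never ranked above percentile 9.1.

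**Figure D4:**
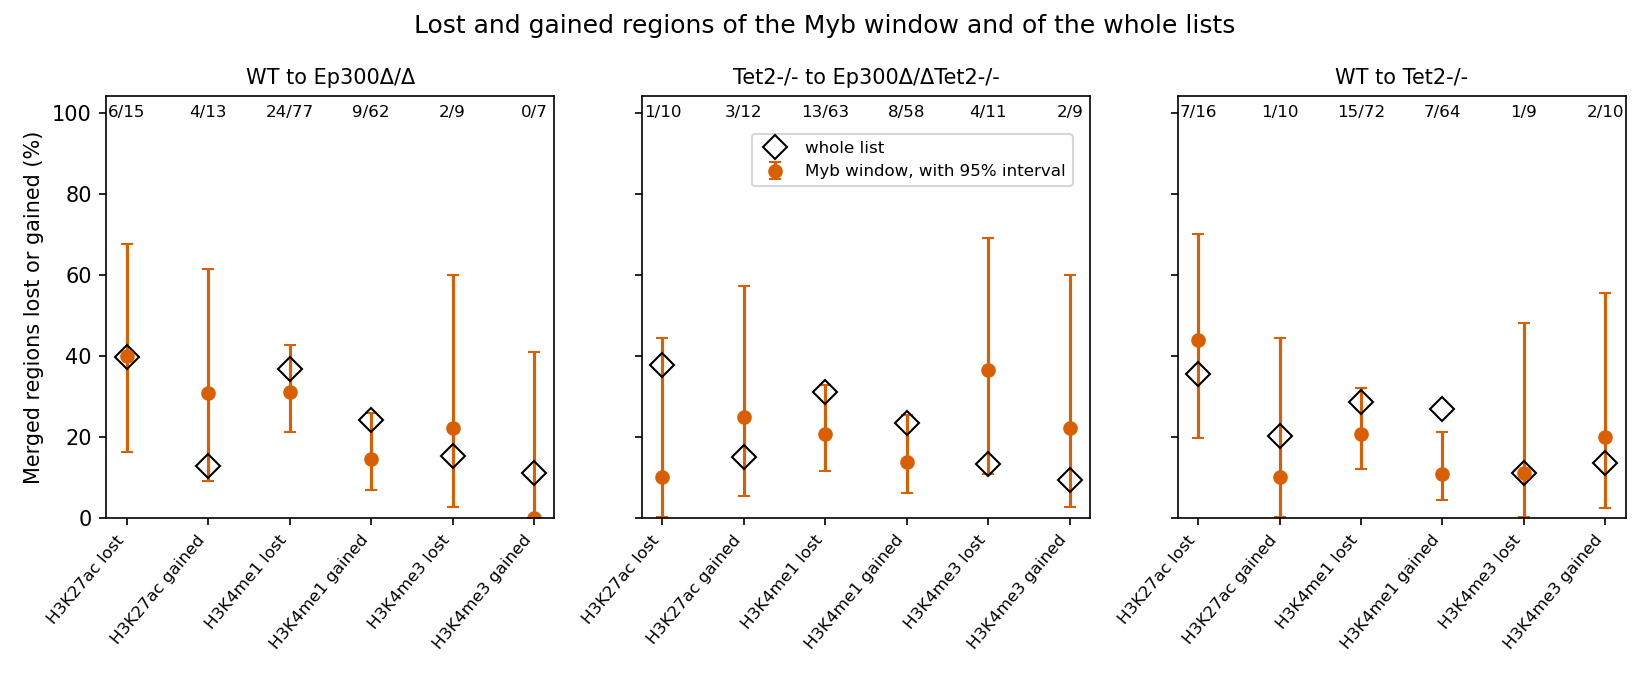
Share of merged regions lost or gained in 3 comparisons (panels), for the *Myb* window (filled points with exact 95% intervals, counts above) and the whole list (open diamonds), in percent. The window and list shares met for H3K4me3 lost from WT to *Tet2*-/- (11.1% for both), and were farthest apart for H3K27ac lost from *Tet2*-/- to the double mutant (10.0% and 37.8%).

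An active enhancer was a peak of H3K27ac with H3K4me1 called over it in the same cells, outside promoters (3000 bp to either side of any transcript start). The window held 5 in WT and 9 in *Ep300*Δ/Δ cells, and 4 in *Tet2*-/- and 5 in double-mutant cells, out of 9505, 5093, 6548, and 3720 in the lists. The list was thus shorter after *Ep300* deletion on both backgrounds, whereas the count at *Myb* was not lower on either. Of the 9 in *Ep300*Δ/Δ cells, 6 lay between -78.1 and -74.0 kb, and none of the 9 was closer to the start than 31.4 kb. The *Ep300*Δ/Δ peak at 31.4 kb counted and the wider WT peak at that place did not, because the latter reached into the promoter of *Gm40608*. With promoters of 1500 bp the counts were 8, 9, 4, and 5.

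Genes linked to *Myb* were examined for promoter marks, beside the 40.0% of all protein-coding genes with H3K27ac and the 60.1% with H3K4me3 in all 4 genotypes. The lists are small, and no difference from those shares was tested. Both relatives, *Mybl1* and *Mybl2*, had H3K27ac in all 4 genotypes, as did 4 of 5 partners (*Ep300*, *Kmt2a*, *Men1*, and *Psip1*). The fifth, *Crebbp*, which encodes CBP, was called only in WT cells, at percentile 23.1. Of 9 factors known to act at blood enhancers, 5 (*Tal1*, *Ldb1*, *Lmo2*, *Runx1*, and *Meis1*) had H3K27ac in all 4 genotypes. *Gata2* and *Klf1*, regulators of early and erythroid progenitors, were not called in the double mutant, *Gata1* was not called in *Ep300*Δ/Δ cells, and *Hoxa9* was not called in *Tet2*-/- cells. *Meis1*, a homeobox factor of stem cells, ranked at percentile 39.3, 84.6, 72.8, and 93.2 in WT, *Ep300*Δ/Δ, *Tet2*-/-, and double-mutant cells. The order of the genotypes differed among these 5 factors. *Ldb1* also ranked lowest in WT cells (percentile 56.4). The lowest rank was in *Tet2*-/- cells for *Tal1* (85.4) and *Lmo2* (76.4), and in double-mutant cells for *Runx1* (79.9). The highest was in double-mutant cells for *Meis1*, *Ldb1*, and *Lmo2*, in WT for *Tal1*, and in *Tet2*-/- cells for *Runx1*. Of 9 genes known as *Myb* targets, 8 had H3K27ac in all 4 genotypes, and *Elane*, the neutrophil elastase gene, ranked at percentile 36.5, 15.7, and 9.1 and was not called in the double mutant. H3K4me3 was called at the promoters of all these genes in all 4 genotypes.

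The 5 genes whose windows varied most like that of *Myb* over the 12 lists, by the correlation of covered length relative to each list, were *Ppp1r15b* (r = 0.949), *Pfkfb4* (0.942), *Mdm4* (0.940), *Pik3c2b* (0.940), and *Klhl8* (0.935). These came from 11714 genes, and each r describes 12 values that share libraries in groups of marks. The windows of *Ppp1r15b*, *Mdm4*, and *Pik3c2b* overlap on chromosome 1, so the 5 genes represent 3 places. H3K27ac in the *Ppp1r15b* window covered 8.70 kb in WT and 6.65 kb in *Ep300*Δ/Δ cells, and 5.69 kb in *Tet2*-/- and 7.78 kb in double-mutant cells, in the order of genotypes for which the gene was picked.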

How the data were processed

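Peak lists of H3K27ac, H3K4me1, and H3K4me3 ChIP-Seq in Lin- bone marrow cells were used, 1 library for each of 4 genotypes and 3 marks. The other 8 of the 20 samples have no peak list in the files used and were not analysed here. Genotype and mark came from the labels. H3K4me1 and H3K4me3 titles are abbreviated and were read with the antibody numbers in the methods.

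The authors used cutadapt 1.15 for trimming, BWA 0.7.13 for alignment to mm10, and Picard for duplicates, and called narrow peaks with MACS2 2.1.1.20160309 against the H3 library, keeping peaks found in pseudo-replicates. The labels call the libraries single-end and the methods call them paired-end. The deposited lists give, per peak, a score (not used), a fold enrichment, and −log10 *P* and *q* values. A peak count moves with library depth and yield, which the lists do not give, so a weak region may be absent from a list by depth alone. The lists hold some peaks short of the stated *q* of 0.05, up to 7.17% in the *Ep300*Δ/Δ H3K27ac list.

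Lists were compared as in the methods, by merging and overlap of at least 1 bp. Gene models were GENCODE release 21 (Ensembl release 96), and promoters reached 3000 bp to either side of a transcript start. Intervals (95%, exact Clopper-Pearson) treat regions as independent and cover only counting error. Named were the *Myb* and *Hbs1l* promoter peaks, each H3K27ac region outside them with the H3K4me1 over it, the 3 widest regions of H3K4me1 and H3K4me3, the gene lists, and the 5 genes most like *Myb*, by Pearson's correlation of log2(covered kb + 1), less log2 of the list's total and centred over genotypes within each mark, among genes with at least 5 H3K27ac regions. The window, lists, and rule were chosen with earlier results of these data known. Some other regions were named after their values were seen. Alternatives were a larger required overlap, a distance of 500 bp, −log10 *q* of at least 5, lists of equal size, upper parts of the lists, a narrower window, and promoters of 1500 bp. One more, only peaks that meet the stated *q*, was chosen after seeing the data.

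Counting was tested on simulated lists with known losses and gains, and 24 of 24 counts from the deposited lists equaled those of bedtools 2.31.1. Software was scipy 1.17.1, pandas 2.3.3, numpy 2.4.6, matplotlib 3.10.9, and pysam 0.24.0 under Python 3.11.15. Sequences came from RefSeq GRCm38.p6.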

Additional observations from a re-analysis of the deposited data

Results flagged for a closer look

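Some raw counts and lengths moved in opposite directions with *Ep300* deletion on the 2 backgrounds, and with 1 library per genotype none of these differences was tested. H3K27ac peaks in the window went from 16 to 14 in cells with *Tet2* and from 10 to 12 in cells without it, a difference between the changes of 4 peaks. The length under H3K27ac went from 8520 to 6262 bp and from 4947 to 7054 bp, a difference of 4365 bp. Relative to the whole list, the direction was the same on both backgrounds: the window held 0.0539% and 0.0616% of the H3K27ac peaks with *Tet2* and 0.0408% and 0.0655% without it, and 0.0455% and 0.0546%, then 0.0331% and 0.0594%, of the length under them. H3K4me1 peaks went from 78 to 68 and from 66 to 68, a difference of 12 peaks, whereas their share of the list went from 0.0726% to 0.0749% and from 0.0673% to 0.0728%, and the length under H3K4me1 was lower after deletion on both backgrounds. The length under H3K4me3 went from 8895 to 7840 bp and from 9071 to 9156 bp, a difference of 1140 bp. As a share of the list it went from 0.0304% to 0.029% and from 0.0314% to 0.0334%.

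Of the merged regions, 2 of H3K4me1, both inside *Myb*, were lost on 1 background and gained on the other. The region centred at -27.0 kb was called in *Ep300*Δ/Δ (percentile 65.1) and *Tet2*-/- cells (percentile 80.3) only, and the region centred at -19.3 kb in WT (percentile 16.9) and *Ep300*Δ/Δ*Tet2*-/- cells (percentile 13.8) only. Each presence was found for 1 of 85 merged H3K4me1 regions of the window (1.18%). In the genome the shares were 1.99% for the first presence and 2.19% for the second. These were not tested either.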

How the results depend on the processing

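Of 63 recomputed values for the 8 counts of H3K27ac and H3K4me1 regions lost or gained with *Ep300* deletion and the count of H3K4me3 regions in all 4 lists, 41 stayed within 1.5 times the reported count and 22 did not. Below, the first background is WT to *Ep300*Δ/Δ and the second *Tet2*-/- to *Ep300*Δ/Δ*Tet2*-/-. With cover of at least 50% of a region required, 5 H3K27ac regions were gained on the second. With a distance of 500 bp allowed, 2 H3K27ac regions were gained on the first, 13 H3K4me1 regions were lost and 5 gained on the first, and 4 were lost on the second. With −log10 *q* of at least 5, no H3K27ac region was gained on the first, 3 H3K4me1 regions were gained on the first, and 20 were lost on the second. With lists of equal size, 2 H3K27ac regions were lost and 0 gained on the first, and 0 were lost on the second. In the upper parts of the lists, where fewer regions can be lost or gained by construction, 1 H3K27ac region was lost and 0 gained on the first and 0 and 0 on the second, 10 H3K4me1 regions were lost and 4 gained on the first and 7 and 1 on the second, and 3 H3K4me3 regions were in all 4 lists. In the narrower window, 1 H3K27ac and 4 H3K4me1 regions were gained on the first. Except in the upper parts and the narrower window, the cause was not tested. Only with peaks that meet the stated *q* did all 9 counts stay within 1.5 times. Of 88 further values, 61 stayed within that range and 27 did not. H3K4me1 regions gained from WT to *Tet2*-/- ranged from 0 (distance of 500 bp) to 13 (−log10 *q* of at least 5), against 7 reported. No paired analysis was possible because each genotype and mark had 1 library. Library depth, which sets how many weak peaks are called, is unknown, and most H3K27ac regions that differed ranked under percentile 50 of their list.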
